A study of Mus musculus with 17 samples.

Results

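The 10 genes described here build the classical major histocompatibility complex (MHC) class I molecule and load it with peptide: the heavy chains H2-K1 and H2-D1, the light chain B2m, the transporter subunits Tap1 and Tap2, the chaperones Calr, Tapbp and Tapbpl, the peptidase Erap1 and the transactivator Nlrc5. They were chosen by symbol for these roles and all 10 were found among the 55421 genes of the count tables. RNA was measured in colorectal tumors of mice given azoxymethane, a mutagen, and dextran sulfate sodium, which inflames the colon. The 17 libraries came from 4 genotypes in 2 experiments, each with its own controls. Tyk2Δ/Δ mice (Tyk2KO in the labels, 3 libraries) carried a germline deletion of Tyk2, a kinase that passes on signals from type I interferon and interleukin 12 receptors, and were compared with Tyk2+/+ mice (Tyk2wt, 3 libraries). Tyk2ΔIEC mice (Tyk2DIEC, 4 libraries) lost the gene through a cre driven by the Villin promoter in intestinal epithelium, so that the other cells of the tumor kept it. Their controls were Tyk2fl/fl mice (Tyk2fl, 7 libraries), which carried the floxed gene without cre. All mice had a C57BL/6 background, the germline deletion had been made from the floxed allele with a CMV-cre deleter strain, and both control groups were littermates. The labels speak of single tumors and the study's legends of pooled tumor samples. Age and sex of the mice, and whether each library came from a separate mouse, are not given in the sources used here, so each p-value rests on how these libraries vary, which may be technical.

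Class I molecules show peptides from inside the cell to CD8 T cells. Peptides cut by the proteasome enter the endoplasmic reticulum (ER) through the Tap1-Tap2 transporter, are trimmed there by Erap1, and are exchanged on the heavy chain with the help of tapasin (Tapbp), its relative Tapbpl and calreticulin (Calr) until a stable complex with B2m can leave for the cell surface. Most cells, colonic epithelium and infiltrating leukocytes alike, make class I molecules, and interferon γ and type I interferons raise most of these genes, in part through Irf1 and Nlrc5.

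Promoter sequences of 5 members are shown, chosen with the results below known. Both heavy chains, B2m and Tap1 were lower by more than 2-fold in Tyk2Δ/Δ tumors. In Tyk2ΔIEC tumors H2-D1 and B2m did not reach an adjusted p under 0.05. Calr reached it in neither experiment. The genes for both heavy chains, Tap1, Tap2 and Tapbp lie in the MHC region, and these 5 of the 10 genes are on chromosome 17. RefSeq promoter windows matched 7 of the 10 members. These windows end at RefSeq starts, which can differ from the GENCODE gene positions given below. Those of H2-D1, Tapbp and Erap1 lie inside the GENCODE gene. Each line gives the 250 bases before the RefSeq start (GRCm38.p6), 5′ to 3′ on the strand of the gene. Capitals mark matches on either strand to GAANNGAAA, the interferon-stimulated response element core (GAAA, any 2 bases, GAAA), TGACG or CCAAT.
H2-K1 (chr17:34000348-34000597, minus strand): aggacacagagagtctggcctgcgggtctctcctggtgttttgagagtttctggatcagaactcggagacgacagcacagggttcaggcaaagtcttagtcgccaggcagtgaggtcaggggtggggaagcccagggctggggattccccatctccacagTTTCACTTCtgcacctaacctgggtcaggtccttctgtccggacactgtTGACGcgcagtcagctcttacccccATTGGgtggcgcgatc
H2-D1 (chr17:35262844-35263093, plus strand): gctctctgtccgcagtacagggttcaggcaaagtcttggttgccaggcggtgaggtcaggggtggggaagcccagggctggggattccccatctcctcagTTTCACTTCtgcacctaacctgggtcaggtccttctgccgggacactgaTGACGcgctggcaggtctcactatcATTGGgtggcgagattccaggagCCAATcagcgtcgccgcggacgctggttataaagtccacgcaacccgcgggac
B2m (chr2:122147437-122147686, plus strand): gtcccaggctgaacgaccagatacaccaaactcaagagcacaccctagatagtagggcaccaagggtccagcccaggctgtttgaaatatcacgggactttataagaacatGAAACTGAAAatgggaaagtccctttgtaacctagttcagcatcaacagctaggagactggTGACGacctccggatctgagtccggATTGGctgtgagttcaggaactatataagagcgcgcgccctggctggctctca
Tap1 (chr17:34187306-34187555, plus strand): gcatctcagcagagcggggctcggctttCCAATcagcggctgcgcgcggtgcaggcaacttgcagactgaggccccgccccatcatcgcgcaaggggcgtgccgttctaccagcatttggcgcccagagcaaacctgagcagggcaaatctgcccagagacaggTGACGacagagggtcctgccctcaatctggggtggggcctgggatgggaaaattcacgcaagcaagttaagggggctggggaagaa
Calr (chr8:84846932-84847181, minus strand): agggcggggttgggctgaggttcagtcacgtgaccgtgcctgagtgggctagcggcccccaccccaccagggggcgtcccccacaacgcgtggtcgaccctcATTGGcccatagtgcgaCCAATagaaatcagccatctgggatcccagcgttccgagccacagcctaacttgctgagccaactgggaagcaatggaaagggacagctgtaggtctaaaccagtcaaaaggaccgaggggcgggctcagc

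GAANNGAAA and the response element core are forms of the element bound by interferon regulatory factors, and no member's window matched both. The form GAANNGAAA was found in H2-K1, at bases -90 to -82 from the start, and in H2-D1 at -150 to -142, and in 6.34% of the 27025 promoters of the same length. The response element core was found in B2m at -139 to -130 and in 3.04% of all promoters. TGACG, part of the X2 box bound by cAMP response element factors, was found in H2-K1, H2-D1, B2m and Tap1, that is in 4 of the 7 members with a window, and in 17.9% of all promoters. CCAAT, the Y box bound by NF-Y, was found in 6 of the 7 members, Erap1 being the exception, and in 34.5% of all promoters. An outline of the NF-κB site (GGG and CCC with any 4 bases between), which is not capitalised, was found in H2-K1, H2-D1 and Calr and in 10.1% of all promoters. In the windows of H2-K1 and H2-D1 the interferon-type core, TGACG and CCAAT follow each other in the same order. Calr and Tapbp had CCAAT but neither an interferon-type core nor TGACG in these 250 bases. Erap1 had none of these, and Tap1 had TGACG and CCAAT but no interferon-type core. TTCNNNGAA, the gamma-activated site, was found in none of the 7 members with a window and in 7.18% of all promoters. These matches describe letters in a window and were not tested as binding sites.

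Counts assigned to genes totalled 19922606 to 21707373 per Tyk2Δ/Δ library and 19789347 to 21318077 per Tyk2+/+ library. They totalled 19129696 to 20334948 per Tyk2ΔIEC library and 29777763 to 35427965 per Tyk2fl/fl library, so that these controls were sequenced more deeply. Epithelial markers were present in every genotype, with a summed level of 11660 to 12301 in Tyk2Δ/Δ and 10472 to 12831 CPM (counts per 1000000, normalised) in Tyk2+/+ libraries, and of 9989 to 12888 in Tyk2ΔIEC and 8676 to 14683 CPM in Tyk2fl/fl libraries. Reads on Tyk2 as a whole did not check the labels, since the deletion removes 1 exon and the tables hold no counts per exon. Log2 fold changes of Tyk2 were 0.05 in Tyk2Δ/Δ (adjusted p = 0.645) and 0.10 in Tyk2ΔIEC tumors (adjusted p = 0.321, both from edgeR). The paper reports that reads on the deleted exon were absent from Tyk2Δ/Δ tumors and from most, not all, Tyk2ΔIEC tumors. Tyk2fl/fl libraries 1 to 3 stood apart in Xist, with 1220 to 1297 CPM against at most 3.07 CPM in each of the other 14 libraries. Ddx3y, a gene of the Y chromosome, was at 0 to 0.0571 CPM in Tyk2fl/fl libraries 1 to 4 and at 43.1 CPM or more in the other 13. No Tyk2ΔIEC library resembled Tyk2fl/fl libraries 1 to 4 in these genes, so results of the epithelial experiment are also given with Tyk2fl/fl libraries 5 to 7 as the only controls.

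In Tyk2Δ/Δ tumors the class I genes were lower as a group, the transactivator and the light chain most of all. At an adjusted p under 0.05, 8 of the 10 members were lower and none higher, and 6 of these 8 were lower by more than 2-fold (edgeR's quasi-likelihood F test, Benjamini-Hochberg adjustment over 16179 genes). Of all genes tested, 2.13% were lower, 0.668% were higher and 1.21% were lower by more than 2-fold. The median log2 fold change was -1.40 over the 10 members and 0.00400 over all genes tested. For each of the 10 members every Tyk2Δ/Δ library lay below every Tyk2+/+ library, as it did for 14% of all genes. In bulk tumors a lower level from fewer expressing cells and one from less RNA per cell cannot be told apart.

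In Tyk2ΔIEC tumors H2-K1, Tap1, Tap2, Tapbpl, Erap1 and Nlrc5 were higher, with smaller fold changes than those seen in Tyk2Δ/Δ tumors. There 6 of the 10 members were higher than in Tyk2fl/fl tumors and none lower, against 10.2% of 17668 genes tested that were higher and 9.71% that were lower. Tap1 and Nlrc5 were higher by more than 2-fold, as were 1.48% of all genes. The median log2 fold change was 0.53 over the members and -0.00311 over all genes tested. Levels of both genotypes did not overlap for H2-K1, Tap1, Tap2 and Tapbpl, all higher in Tyk2ΔIEC, against 7.73% of all genes. These calls rest on few libraries: without Tyk2ΔIEC library 2 only Tap1 passed. With Tyk2fl/fl libraries 5 to 7 as the only controls 7 members passed, which adds H2-D1 and B2m and loses Tapbpl.

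**Figure D1:**
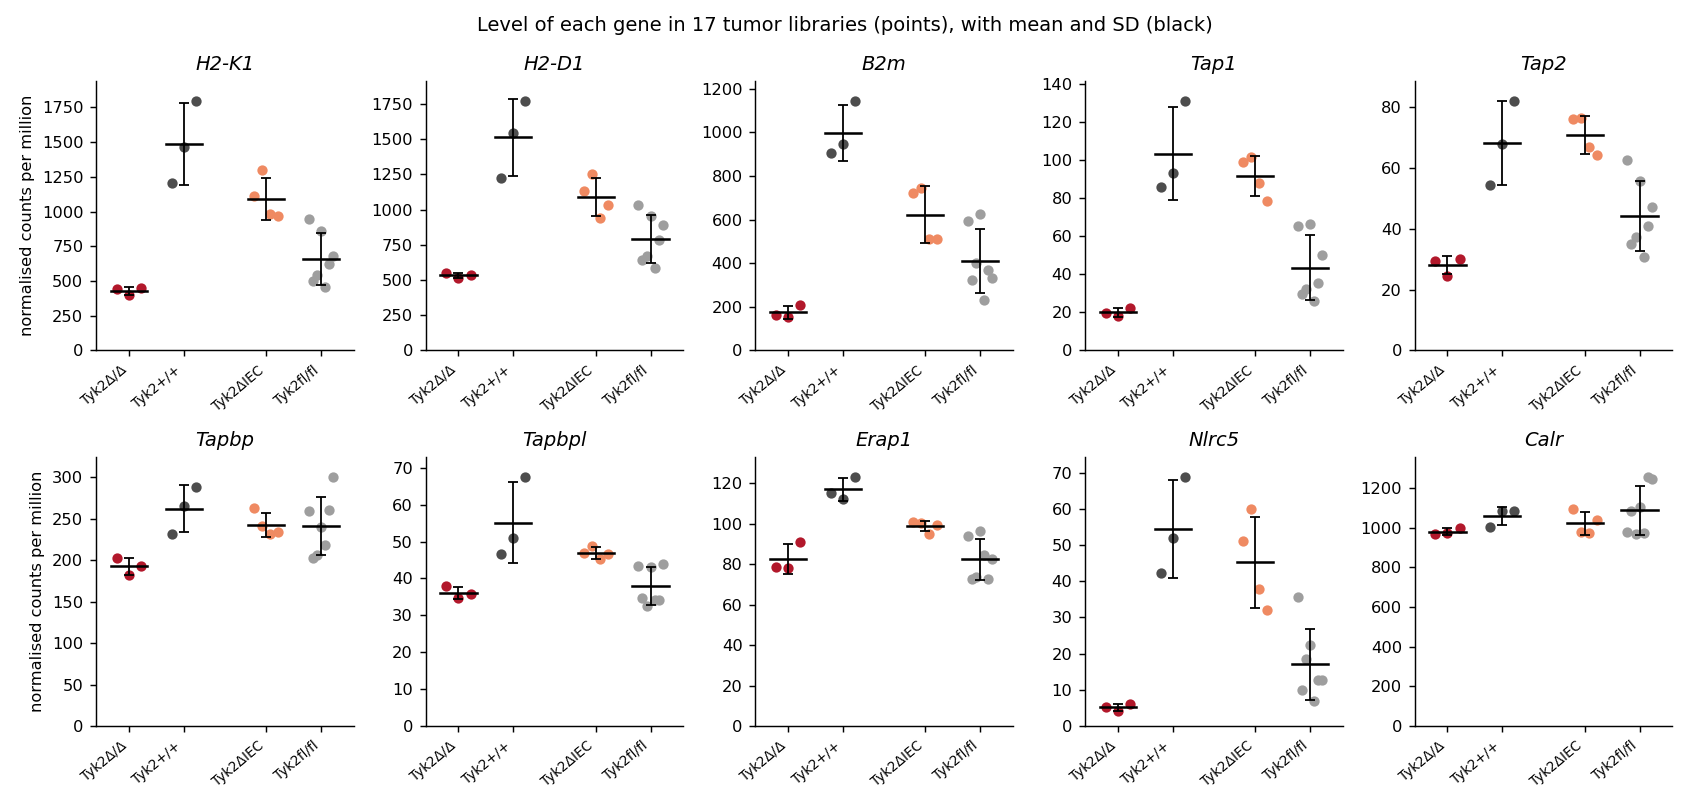
Normalised CPM (y axis, linear, from 0) of the 10 class I genes in each of the 17 tumor libraries (points), by genotype (x axis), with the mean and SD in black. For H2-K1, H2-D1, B2m, Tap1, Tap2 and Nlrc5 the Tyk2Δ/Δ libraries lie below all libraries of the other 3 genotypes, while Calr stays between 968 and 1257 CPM throughout.

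The heavy chains hold the peptide and pair with CD8. H2-K1 (ENSMUSG00000061232, chr17:33996017-34000347, minus strand, GRCm38) stood at 444, 398 and 449 CPM in the Tyk2Δ/Δ libraries, against 1204, 1465 and 1796 CPM in the Tyk2+/+ libraries. Its 3 Tyk2Δ/Δ values lie close together, and the lowest Tyk2+/+ value is far above them. This was a log2 fold change of -1.80 (SE 0.142, adjusted p = 0.00109 from edgeR), a 3.47-fold lower level. In the Tyk2ΔIEC libraries H2-K1 stood at 1110, 1296, 981 and 971 CPM, against a lowest value of 455, a median of 622 and a highest of 949 CPM in Tyk2fl/fl libraries. All 4 Tyk2ΔIEC values lie above the highest control, library 1 of Tyk2fl/fl, though the gap is small. H2-K1 rose by 0.73 on the log2 scale (SE 0.186, adjusted p = 0.0184 from edgeR) and was 0.62 higher without Tyk2ΔIEC library 2 (adjusted p = 0.0758 from edgeR).

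H2-D1 (ENSMUSG00000073411, chr17:35262730-35267499, plus strand), the other classical heavy chain, stood at 551, 514 and 536 CPM in Tyk2Δ/Δ and at 1226, 1542 and 1770 CPM in Tyk2+/+ libraries. Its log2 fold change of -1.51 (SE 0.128, adjusted p = 0.00171 from edgeR) was somewhat smaller than that of H2-K1. Tyk2ΔIEC libraries held 1131, 1252, 938 and 1035 CPM of H2-D1, against a lowest value of 582, a median of 784 and a highest of 1032 CPM in Tyk2fl/fl libraries. The groups overlap, with 3 of the 4 Tyk2ΔIEC libraries above the highest control. A log2 fold change of 0.46 (SE 0.153, adjusted p = 0.0520 from edgeR) missed the threshold, and H2-D1 passed without Tyk2fl/fl library 1, 4 or 7. Heavy chain genes resemble each other and their nonclassical relatives: 3.10% of the 75-base windows of H2-K1 transcripts and 5.56% of those of H2-D1 also occur in other genes, where a read has no unique place.

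B2m (ENSMUSG00000060802, chr2:122147686-122153083, plus strand) encodes β2-microglobulin, the light chain that every class I molecule needs to fold and to reach the surface. It stood at 164, 153 and 208 CPM in Tyk2Δ/Δ libraries, against 905, 946 and 1144 CPM in Tyk2+/+ libraries. This was the second largest fall among the members, with a log2 fold change of -2.52 (SE 0.142, adjusted p = 0.000846 from edgeR), or 5.73-fold. Its highest Tyk2Δ/Δ value, in library 3, is far below the lowest Tyk2+/+ value. Tyk2ΔIEC libraries held 724, 745, 511 and 511 CPM, against a lowest value of 231, a median of 369 and a highest of 627 CPM in Tyk2fl/fl libraries. Tyk2ΔIEC libraries 1 and 2 lie above all controls and libraries 3 and 4 within their range. Its log2 fold change of 0.60 (SE 0.238, 95% interval 0.0835 to 1.11, adjusted p = 0.0941 from edgeR) did not pass, and without Tyk2fl/fl library 1 or 4, the highest controls, it did.

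Each library gives its own ratio of light to heavy chain, in which scaling cancels. The log2 ratio of B2m to the sum of H2-K1 and H2-D1 was -2.60, -2.58 and -2.25 in Tyk2Δ/Δ libraries, against -1.42, -1.67 and -1.64 in Tyk2+/+ libraries. B2m was thus lower relative to the heavy chains in each Tyk2Δ/Δ library, with a difference of the means of -0.90 (two-sided exact permutation test over libraries, p = 0.1, the smallest that 3 against 3 allows, and 0.12 adjusted over 6 ratio tests). In the epithelial experiment the ratio averaged -1.82 ± 0.152 in Tyk2ΔIEC and -1.86 ± 0.270 in Tyk2fl/fl libraries (SD, n = 4 and 7). The difference of 0.04 was smaller than the spread between libraries (exact permutation test, p = 0.809, adjusted p = 0.809).

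Tap1 and Tap2 form the transporter that moves peptides into the ER. Tap1 (ENSMUSG00000037321, chr17:34187553-34197225, plus strand) stood at 19.8, 17.9 and 22.5 CPM in Tyk2Δ/Δ libraries, against 85.7, 93.4 and 131 CPM in Tyk2+/+ libraries. No value comes near the other genotype, and Tap1 fell by 2.37 on the log2 scale (SE 0.169, adjusted p = 0.000846 from edgeR). In Tyk2ΔIEC libraries Tap1 stood at 98.9, 102, 88.0 and 78.8 CPM, against a lowest value of 26.1, a median of 35.6 and a highest of 66.4 CPM in Tyk2fl/fl libraries. The groups do not overlap, and Tap1 rose by 1.07 on the log2 scale (SE 0.243, adjusted p = 0.0109 from edgeR). Of the 10 members only Tap1 passed in both experiments whichever single library was left out, with its highest adjusted p, 0.0411, without Tyk2ΔIEC library 2 (edgeR). Psmb9 on the other strand overlaps 3.87% of its exon bases.

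Tap2 (ENSMUSG00000024339, chr17:34203527-34216321, plus strand) moved in the same directions by less. It stood at 29.4, 24.6 and 30.2 CPM in Tyk2Δ/Δ and at 54.6, 68.0 and 82.1 CPM in Tyk2+/+ libraries, with a log2 fold change of -1.29 (SE 0.149, adjusted p = 0.00574 from edgeR). It stood at 76.2, 76.4, 66.8 and 64.3 CPM in Tyk2ΔIEC libraries, against a lowest value of 30.9, a median of 41.1 and a highest of 62.7 CPM in Tyk2fl/fl libraries. Here the log2 fold change was 0.68 (SE 0.169, adjusted p = 0.0162 from edgeR), and without Tyk2ΔIEC library 2 it was 0.62 (adjusted p = 0.0596 from edgeR). Tap2 shares 14.1% of its exon bases with the antisense transcript Gm15821, and which strand the deposited counts use is not given in the sources used here.

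Of the pair, Tap1 had the larger fold changes. The log2 ratio of Tap1 to Tap2 was -0.57, -0.46 and -0.43 in Tyk2Δ/Δ libraries, against 0.65, 0.46 and 0.68 in Tyk2+/+ libraries; without length correction only differences between libraries can be read from it. The difference was -1.08 (exact permutation test, p = 0.1, the smallest that 3 against 3 allows, adjusted p = 0.12). In Tyk2ΔIEC libraries the log2 ratio was 0.38, 0.41, 0.40 and 0.29, against a mean of -0.07 ± 0.200 in Tyk2fl/fl libraries (SD, n = 7). The difference of 0.44 passed (exact permutation test, p = 0.00606, adjusted p = 0.0273 over 6 ratio tests), with all 4 Tyk2ΔIEC libraries above the highest control.

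**Figure D2:**
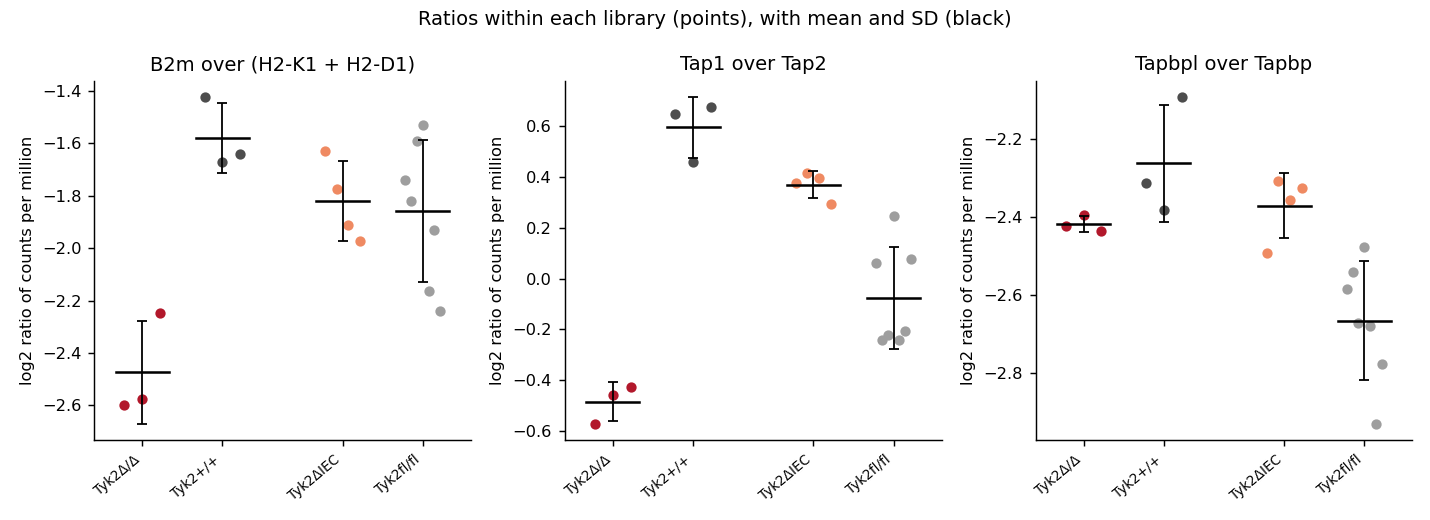
Log2 ratio of B2m to both heavy chains, of Tap1 to Tap2 and of Tapbpl to Tapbp (y axes, from CPM without length correction) in each of the 17 libraries (points), by genotype (x axis), with mean and SD in black. The Tap1 to Tap2 ratio is at most -0.43 in the 3 Tyk2Δ/Δ libraries, below all other libraries, and at least 0.46 in the 3 Tyk2+/+ libraries.

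Of the chaperones and peptide editors, Tapbp (ENSMUSG00000024308, chr17:33915899-33929292, plus strand) encodes tapasin, which bridges the class I molecule to the transporter. It stood at 203, 183 and 193 CPM in Tyk2Δ/Δ libraries, against 232, 266 and 288 CPM in Tyk2+/+ libraries. The fall was small beside those of the transporter genes, with a log2 fold change of -0.45 (SE 0.0886, adjusted p = 0.0423 from edgeR), and the call was lost without each library except Tyk2+/+ library 1 (adjusted p from 0.0140 to 0.176 over the 6 fits without 1 library). Tyk2ΔIEC libraries held 263, 242, 232 and 234 CPM, within the range of Tyk2fl/fl libraries, whose lowest value was 203, median 241 and highest 301 CPM. At 0.0072 the log2 fold change was near 0 (95% interval -0.22 to 0.23, adjusted p = 0.970 from edgeR). Tapbp shares 24.9% of its exon bases with the antisense transcript Gm19412.

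Tapbpl (ENSMUSG00000038213, chr6:125223933-125231860, minus strand), the tapasin relative that edits peptides away from the loading complex, stood at 37.8, 34.8 and 35.7 CPM in Tyk2Δ/Δ and at 46.7, 51.0 and 67.6 CPM in Tyk2+/+ libraries. A log2 fold change of -0.62 (SE 0.130) was larger than that of Tapbp but just missed the threshold (adjusted p = 0.0508 from edgeR), and it passed without Tyk2+/+ library 1. Tyk2ΔIEC libraries held 46.8, 48.9, 45.2 and 46.6 CPM, a narrow band above the highest Tyk2fl/fl library, against a lowest value of 32.5, a median of 34.8 and a highest of 43.9 CPM in Tyk2fl/fl libraries. Tapbpl rose by 0.30 on the log2 scale (SE 0.0968, adjusted p = 0.0440 from edgeR). Among the 11 fits without 1 library this call held only without Tyk2fl/fl library 1, 4 or 7, and it was lost with Tyk2fl/fl libraries 5 to 7 alone. The log2 ratio of Tapbpl to Tapbp averaged -2.42 ± 0.0211 in Tyk2Δ/Δ and -2.26 ± 0.150 in Tyk2+/+ libraries (SD, n = 3 each, exact permutation test, p = 0.1, adjusted p = 0.12). It averaged -2.37 ± 0.0832 in Tyk2ΔIEC and -2.66 ± 0.153 in Tyk2fl/fl libraries (SD, n = 4 and 7), a difference of 0.30 (exact permutation test, p = 0.00909, adjusted p = 0.0273).

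Calr (ENSMUSG00000003814, chr8:84841850-84846934, minus strand) encodes calreticulin, a chaperone for many glycoproteins that holds the heavy chain in the loading complex. It stood at 968, 974 and 998 CPM in Tyk2Δ/Δ and at 1005, 1084 and 1083 CPM in Tyk2+/+ libraries. The values do not overlap, yet the difference was small, with a log2 fold change of -0.12 (95% interval -0.27 to 0.04, adjusted p = 0.355 from edgeR). Tyk2ΔIEC libraries held 1096, 978, 974 and 1038 CPM, within the Tyk2fl/fl range of 970 to 1257 CPM around a median of 1085 CPM. In this experiment the log2 fold change was -0.09 (95% interval -0.29 to 0.11, adjusted p = 0.519 from edgeR). Calr was the only member that passed in neither experiment, and in neither did its interval reach a 2-fold change.

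Erap1 (ENSMUSG00000021583, chr13:74639568-74693201, plus strand), the ER peptidase that trims peptides to the length the heavy chain holds, stood at 78.4, 78.1 and 90.8 CPM in Tyk2Δ/Δ and at 115, 112 and 123 CPM in Tyk2+/+ libraries. Erap1 fell by 0.51 on the log2 scale (SE 0.0776, adjusted p = 0.0180 from edgeR), and the call was lost without Tyk2+/+ library 3 and without Tyk2Δ/Δ library 1 or 2 (highest adjusted p 0.0955). Tyk2ΔIEC libraries held 101, 100.1, 95.1 and 99.1 CPM, against a lowest value of 72.5, a median of 82.5 and a highest of 96.4 CPM in Tyk2fl/fl libraries. With 3 of 4 libraries above all controls the log2 fold change was 0.26 (SE 0.0848, adjusted p = 0.0454 from edgeR), a call that, among the 11 fits without 1 library, held only without Tyk2fl/fl library 1 or 4. Erap1 shares 11.5% of its exon bases with Cast on the other strand.

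Nlrc5 (ENSMUSG00000074151, chr8:94434356-94527272, plus strand) encodes the transactivator that is recruited to class I promoters by factors bound to their X and Y boxes. It stood at 5.37, 4.22 and 6.06 CPM in Tyk2Δ/Δ libraries (85 to 129 counts), against 42.3, 52.1 and 68.9 CPM in Tyk2+/+ libraries (883 to 1430 counts). Nlrc5 had a log2 fold change of -3.38 (SE 0.208, adjusted p = 0.000846 from edgeR), the largest of the 10 and a 10.4-fold lower level. Tyk2ΔIEC libraries held 51.2, 59.8, 37.9 and 32.2 CPM, against a lowest value of 6.99, a median of 12.9 and a highest of 35.5 CPM in Tyk2fl/fl libraries. Only Tyk2ΔIEC library 4 falls inside the control range, below Tyk2fl/fl library 1. Its log2 fold change of 1.41 (SE 0.354, adjusted p = 0.0167 from edgeR) was again the largest of the members, with 1.23 without Tyk2ΔIEC library 2 (adjusted p = 0.0656) and 2.05 with Tyk2fl/fl libraries 5 to 7 alone (adjusted p = 0.00367, both from edgeR).

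**Figure D3:**
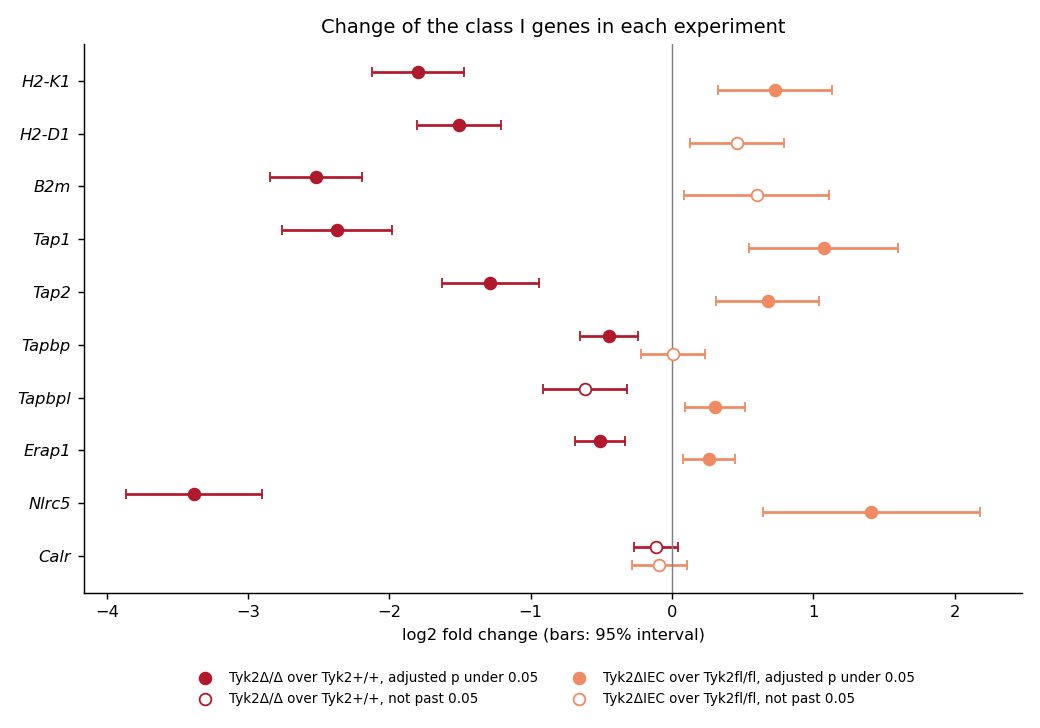
Log2 fold change of each class I gene with its 95% interval (x axis) in Tyk2Δ/Δ over Tyk2+/+ tumors (red, upper of each pair) and in Tyk2ΔIEC over Tyk2fl/fl tumors (orange). Filled points passed an adjusted p of 0.05, 8 of 10 in the germline and 6 of 10 in the epithelial experiment, and all filled red points lie below 0 and all filled orange points above 0.

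Whether the changes differ between the experiments was tested in 1 fit over all 17 libraries, as the change in Tyk2Δ/Δ minus the change in Tyk2ΔIEC tumors. The difference passed for 8 of the 10 members, all negative, while over 17252 genes 5.23% had a negative and 2.73% a positive difference that passed. It was over 2-fold for 6 members, as for 1.8% of all genes. It was largest for Nlrc5 at -4.79 (SE 0.579, adjusted p = 0.000116 from edgeR), Tap1 at -3.44 (SE 0.389, adjusted p = 8.02e-05) and B2m at -3.11 (SE 0.366, adjusted p = 9.30e-05). Tapbp, at -0.45 (adjusted p = 0.0913), and Calr, at -0.02 (95% interval -0.29 to 0.25, adjusted p = 0.949), did not pass, though Tapbp did without Tyk2fl/fl library 7 (adjusted p = 0.0278 from edgeR). None of the 8 calls was lost when any single library was left out. Both experiments were run with separate controls, and the genotype difference between them cannot be told apart from other differences between the experiments.

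The control groups, both without a deletion of Tyk2, differed from each other in these genes as well. Tyk2+/+ tumors were higher than Tyk2fl/fl tumors in 8 of the 10 members, against 7.37% of 17252 genes that were higher and 5.49% that were lower, and by more than 2-fold in H2-K1, B2m, Tap1 and Nlrc5 (1.41% of all genes). Libraries did not overlap for 7 members, all but Tap2, Tapbp and Calr, as for 7.25% of all genes with Tyk2+/+ higher. Log2 differences ran up to 1.28 for B2m (SE 0.230, adjusted p = 0.00329 from edgeR) and 1.68 for Nlrc5 (SE 0.342, adjusted p = 0.00611 from edgeR). Without Tyk2+/+ library 3, only H2-K1, H2-D1, B2m and Erap1 passed, that is 4 members, and 2 were over 2-fold. With Tyk2fl/fl libraries 5 to 7, which like all Tyk2+/+ libraries have reads on Ddx3y, as the only Tyk2fl/fl libraries, the same 8 members passed. The genotype cannot be told apart from the experiment, its colony of mice and its depth, and Tyk2fl/fl libraries 1 to 4 differ in Xist or Ddx3y besides.

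Set in 1 order by mean level, Tyk2Δ/Δ was lowest for 9 members, Erap1 being the exception, where Tyk2fl/fl at 82.3 and Tyk2Δ/Δ at 82.4 CPM were close. Between Tyk2Δ/Δ and the next genotype, Tyk2fl/fl, libraries did not overlap for H2-K1, H2-D1, B2m, Tap1, Tap2 and Nlrc5, that is for 6 members, as for 6.74% of 17252 genes with Tyk2Δ/Δ lower. The gaps were narrow for some: the highest Tyk2Δ/Δ value of H2-K1 was 449 CPM and the lowest Tyk2fl/fl value 455 CPM. Tyk2+/+ was highest for 8 members. Tyk2ΔIEC libraries lay below all Tyk2+/+ libraries for B2m and Erap1, that is for 2 members, as for 11.5% of all genes, and overlapped with them for the other 8. Of all counts, the 10 genes took a median of 0.249% in Tyk2Δ/Δ and 0.559% in Tyk2+/+ libraries, and 0.445% in Tyk2ΔIEC and 0.345% in Tyk2fl/fl libraries.

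Levels between genes were compared per kilobase of exon. In Tyk2Δ/Δ tumors Calr led with a mean level of 340 CPM per kb, above H2-D1 at 207, B2m at 203 and H2-K1 at 146 CPM per kb. In Tyk2+/+ tumors B2m led with 1161 CPM per kb, above H2-D1 at 586, H2-K1 at 507 and Calr at 367 CPM per kb. The transporter and the transactivator were lower than the heavy chains and B2m: in Tyk2Δ/Δ and Tyk2+/+ tumors Tap1 had a mean level of 3.66 and 18.9 CPM per kb, and Nlrc5, the lowest member, of 0.614 and 6.41 CPM per kb.

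Within genotypes, single libraries were often the highest or lowest for several members. Tyk2+/+ library 3 was the highest of its group for 9 members and library 1 the lowest for 9, and Tyk2Δ/Δ library 2 was the lowest of its group for 9. Among Tyk2ΔIEC libraries, 2 was the highest for 7 members and 1 for the other 3, Tapbp, Erap1 and Calr. Among Tyk2fl/fl libraries, 1 and 4 were highest for 7 members between them, and library 5 was lowest for 6. Library 7 was highest for Tapbp and Tapbpl, and library 6 for Calr. The spread of Tyk2fl/fl libraries was wide for Nlrc5, with a coefficient of variation of 56.8%, and narrow for Calr, with 11.4%.

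**Figure D4:**
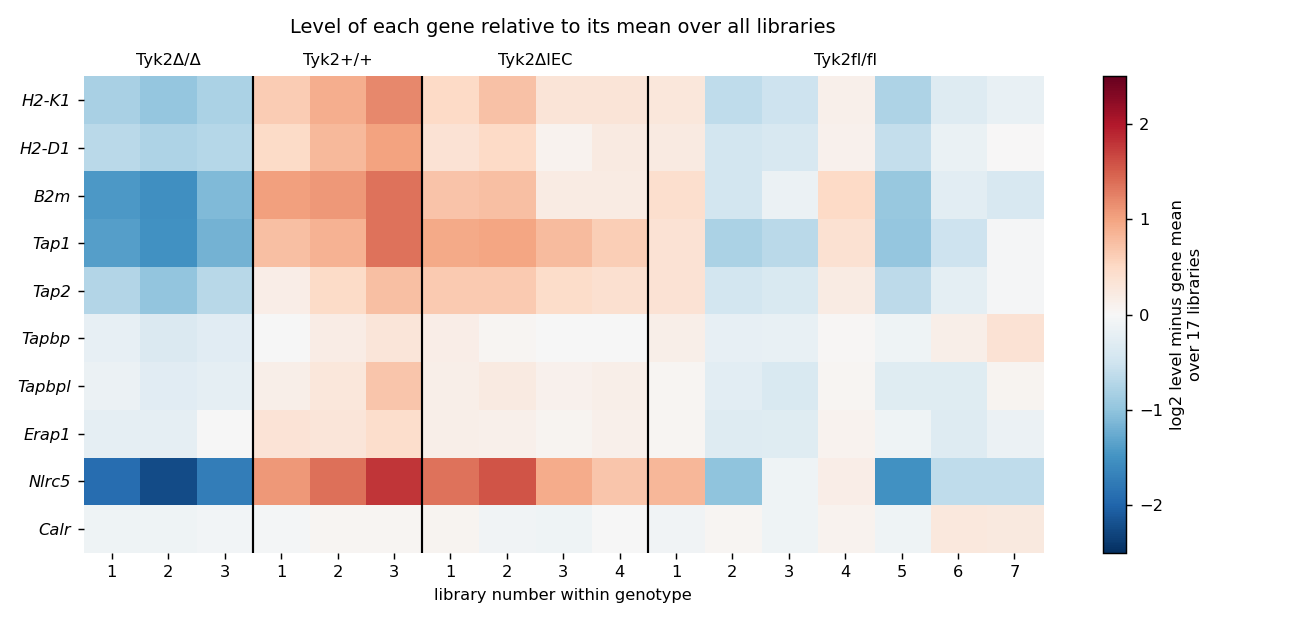
Log2 level of each class I gene (rows) minus its mean over all 17 libraries, by library (columns, numbered within genotype). Red is above and blue below the mean. From H2-K1 to Tap2 and in Nlrc5 the Tyk2Δ/Δ libraries are blue, the Tyk2+/+ and Tyk2ΔIEC libraries red and the Tyk2fl/fl libraries mixed, with 1 and 4 above library 5, while Calr is pale throughout.

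For each member the genes with the most similar profile were taken by the root mean square difference of centred log2 levels over the 17 libraries, among 17252 genes. For H2-K1 the closest was H2-Q4, a nonclassical class I gene (0.122), and for H2-D1 it was H2-T22, another (0.0960). For B2m it was H2-DMb1 of the class II loading pathway (0.267), and for Tap1 the interferon-inducible GTPase Ifi47 (0.152). Tap2 was closest to Parp14 (0.185), Tapbp to Ifi35 (0.0838), Tapbpl to Trafd1 (0.115) and Nlrc5 to H2-Q5 (0.326). Erap1 was closest to Pola1, a subunit of DNA polymerase α (0.0936), and Calr to Rpn2, a subunit of the ER oligosaccharyltransferase (0.0418). A small difference is easily reached by a gene that varies little, and Calr, Erap1 and Tapbp varied least over the libraries.

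Genes that work with these members were counted from lists, to be read beside the 2.13% of all genes lower and 0.668% higher in Tyk2Δ/Δ and the 10.2% higher and 9.71% lower in Tyk2ΔIEC tumors. In a list of about 10 genes, 1 call in each direction in Tyk2ΔIEC tumors is thus near the share of all genes. Of 12 ER folding and loading partners none passed in Tyk2Δ/Δ tumors, and 1 was higher and 2 lower in Tyk2ΔIEC tumors, the second of these being Pdia4. Uggt1, which tags misfolded glycoproteins for another round with calreticulin, rose by 0.41 on the log2 scale (adjusted p = 0.00162 from edgeR) and the translocon subunit Sec61b fell by 0.54 (adjusted p = 0.00800 from edgeR). Of 8 proteasome genes, 5 were lower in Tyk2Δ/Δ tumors (Psmb8, Psmb9, Psmb10 and the activator subunits Psme1 and Psme2), and only the immunoproteasome subunits Psmb8, at -2.27 (adjusted p = 0.000846), and Psmb9, at -2.06 (adjusted p = 0.00140), fell by more than 2-fold (edgeR). In Tyk2ΔIEC tumors 2 of the 8 were higher and 1, Psmb5, lower, with log2 fold changes of 0.88 for Psmb8 (adjusted p = 0.0161) and 0.70 for Psmb9 (adjusted p = 0.0330), of which Psmb8 passed in 10 and Psmb9 in 4 of the 11 fits without 1 library (edgeR). Of 8 further peptidases tested, most of them cytosolic, none passed in Tyk2Δ/Δ and 4 were higher in Tyk2ΔIEC tumors (Dpp8, Lap3, Lnpep and Tpp2).

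Of 14 factors that act on class I promoters, none was higher in Tyk2Δ/Δ tumors. Irf1, a factor of the interferon response, fell by 0.60 on the log2 scale (adjusted p = 0.0212 from edgeR), and passed in 2 of the 6 fits without 1 library. In Tyk2ΔIEC tumors 1 of the 14 was higher, Irf1 at 0.48 (adjusted p = 0.0433), and 1 lower, Rela (edgeR). That call of Irf1 held in 4 of the 11 fits without 1 library, and was lost with Tyk2fl/fl libraries 5 to 7 alone (adjusted p = 0.105 from edgeR). Of 10 genes tested for interferon, its receptors and their signal, Stat2, Irf9 and Socs1 were among those lower in Tyk2Δ/Δ tumors, and in Tyk2ΔIEC tumors Jak2 and Stat2 were higher and Ifnar2 lower, 3 in all. Median log2 fold changes of the promoter factors were 0.00929 in Tyk2Δ/Δ and 0.05 in Tyk2ΔIEC tumors, close to 0 as over all genes tested.

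Of 14 nonclassical class I genes tested, which share B2m and in part the loading pathway, 9 were lower in Tyk2Δ/Δ tumors and 9 higher in Tyk2ΔIEC tumors, with medians of -1.14 and 0.67. H2-Q7 had log2 fold changes of -4.30 (adjusted p = 0.000846) and 1.75 (adjusted p = 0.0158, both from edgeR). Of 9 class II loading genes 7 were lower in Tyk2Δ/Δ tumors, and of 8 tested in Tyk2ΔIEC tumors 2 were higher, among them H2-DMb1 with -2.12 (adjusted p = 0.00186) and 0.86 (adjusted p = 0.0471, both from edgeR). In Tyk2ΔIEC tumors the call of H2-DMb1 held in 2 of the 11 fits without 1 library, and that of H2-Q7 in 10.

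**Figure D5:**
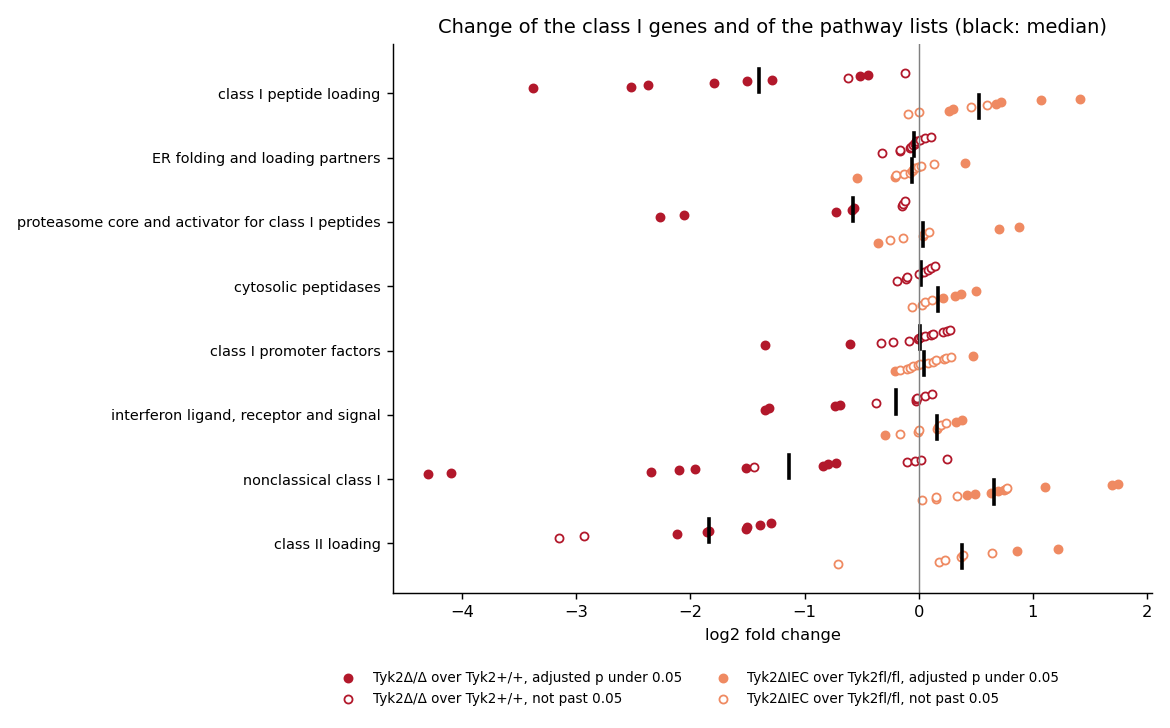
Log2 fold change (x axis) of the 10 class I genes (top row) and of the genes of 7 pathway lists (rows below), in Tyk2Δ/Δ over Tyk2+/+ (red, upper of each pair) and Tyk2ΔIEC over Tyk2fl/fl tumors (orange). Each point is a gene, filled where the adjusted p was under 0.05, and the black bar is the median of the row, which is -1.40 and 0.53 for the class I genes and near 0 for the ER partners.

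Markers of other cells differed between the genotypes too. In Tyk2Δ/Δ tumors 4 of 5 markers of all leukocytes were lower, with a summed level of 97.8 to 122 CPM against 153 to 203 CPM in Tyk2+/+ libraries, and Ptprc, which encodes CD45, had a log2 fold change of -1.10 (adjusted p = 0.0172 from edgeR). Ptprc passed in 3 of the 6 fits without 1 library. Summed over 8 markers of cytotoxic lymphocytes, 3 of them too low to be tested, the level was 3.33 to 3.90 CPM in Tyk2Δ/Δ and 10.9 to 17.8 CPM in Tyk2+/+ libraries, and Klrd1, a receptor of natural killer and T cells, had a log2 fold change of -1.89 (adjusted p = 0.0124 from edgeR), which passed in 5 of the 6 fits. Of 7 smooth muscle markers 6 were lower, with sums of 169 to 239 CPM against 318 to 504 CPM in Tyk2+/+ libraries, while none of 7 macrophage, 7 dendritic cell or 11 epithelial markers passed. Of 5 neutrophil markers 2 were lower. These counts stand beside 2.13% of all genes tested that were lower. Tyk2+/+ library 3, highest for 9 class I members, was also the highest of its group in the sums of leukocyte (203 CPM) and cytotoxic lymphocyte markers (17.8 CPM). It was highest too for epithelial (12831 CPM), neutrophil (142 CPM) and smooth muscle markers (504 CPM). It was lowest for macrophage (238 CPM), B and plasma cell (241 CPM) and fibroblast markers (1146 CPM). For dendritic cell and endothelium markers it lay between the other libraries. No marker list had a gene at 0 in every library of a genotype, and the part of these cells in the class I result was not tested.

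In Tyk2ΔIEC tumors 3 of the 5 markers of all leukocytes were lower and none higher, with sums of 101 to 137 CPM in Tyk2ΔIEC and 110 to 164 CPM in Tyk2fl/fl libraries. None of 6 cytotoxic lymphocyte markers tested passed, with sums over all 8 of 6.50 to 8.07 CPM in Tyk2ΔIEC and 4.37 to 9.07 CPM in Tyk2fl/fl libraries. Of 7 fibroblast markers 4 were lower, with sums of 1268 to 1587 CPM in Tyk2ΔIEC and 1308 to 2164 CPM in Tyk2fl/fl libraries, and 2 of 7 macrophage markers were lower. These counts stand beside 9.71% of all genes tested that were lower. None of the 11 epithelial markers passed. Neither did any of 7 smooth muscle markers. Their sum was 1466 CPM in Tyk2ΔIEC library 1, 210 to 255 CPM in the other Tyk2ΔIEC libraries and 180 to 769 CPM in Tyk2fl/fl libraries. B and plasma cell marker sums ran from 6.07 to 161 CPM in Tyk2ΔIEC and from 21.4 to 135 CPM in Tyk2fl/fl libraries. The cytotoxic marker sums of Tyk2fl/fl libraries 1 to 7 were 7.97, 4.37, 6.88, 9.07, 4.55, 8.46 and 7.95 CPM. Their sums over the 5 markers of all leukocytes, which order the libraries differently, were 128, 143, 164, 147, 110, 152 and 147 CPM. Other marker lists are not given here for each Tyk2fl/fl library. In the same order, the summed levels of the class I members were 4115, 2934, 2986, 4066, 2642, 3490 and 3692 CPM. Whether either marker sum goes with the class I sum was not tested.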

How the data were processed

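By the methods of the study, the authors made directional poly(A) libraries, aligned single-end reads with STAR 2.6.1a (GRCm38 in the submitters' processing notes) and let STAR count reads per gene. Values are the deposited raw counts for 55421 genes, with no filter or normalisation. Columns of the experiment tables equalled the single-sample tables in all 17 libraries. Genotypes come from the labels. Symbols matched 55154 identifiers. Per experiment, genes were filtered (filterByExpr, minimum count 10, minimum total 15), TMM-scaled (trimmed mean of M values) and tested with edgeR 4.0.16 (quasi-likelihood F test, R 4.3.3), with Benjamini-Hochberg adjustment over all genes tested. CPM (counts per 1000000) printed per library were TMM-scaled over the 17 libraries, except those of Xist and Ddx3y, which use all counts and no TMM factor. A standard error is the fold change over the root of its F statistic. Ratios were tested by exact two-sided permutation. Exon lengths, positions and overlaps come from GENCODE M21, promoters from RefSeq. The members and lists were chosen with earlier results of these data known. All members were named, and from each list at most 2 genes with the smallest p in either experiment, and other list genes, given without values, were chosen after their values were seen. Alternatives were DESeq2 1.42.0, limma 3.58.1 (voom), other scalings and filters, a replicate block, thinned or fewer Tyk2fl/fl libraries, 1 fit over all libraries, no ribosomal, mitochondrial and immunoglobulin genes, and leaving out each library. The use of Tyk2fl/fl libraries 5 to 7 alone was chosen after seeing the data. Fits were tested on simulated data. No pair of replicates was close enough to be 1 library deposited more than once. Figures were drawn with matplotlib. Results that need 1 further gene are not reported here.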

Additional observations from a re-analysis of the deposited data

Results flagged for a closer look

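The change in Tyk2Δ/Δ tumors minus that in Tyk2ΔIEC tumors, tested in 1 edgeR fit over all 17 libraries, passed an adjusted p of 0.05 for 8 class I genes, and each is negative. On the log2 scale the difference was -2.52 for H2-K1, -1.96 for H2-D1, -3.11 for B2m, -3.44 for Tap1, -1.96 for Tap2, -0.91 for Tapbpl, -0.77 for Erap1 and -4.79 for Nlrc5. No class I gene or ratio had a library that stood far from the others of its group in Tyk2ΔIEC or Tyk2fl/fl tumors, among 26 groups of values examined, and groups of 3 libraries were not examined for this.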

How the results depend on the processing

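In Tyk2Δ/Δ tumors H2-K1, H2-D1, B2m, Tap1, Tap2 and Nlrc5 passed under every alternative run, and Calr under none. Leaving out single libraries gave 6 to 9 members passing. In Tyk2ΔIEC tumors it gave 1 to 8 (1 without Tyk2ΔIEC replicate 2) and 1 to 2 over 2-fold (1 without Tyk2ΔIEC replicate 2, Tyk2fl/fl replicate 2 or 5). Between the controls it gave 4 to 8 and, over 2-fold, 2 to 5. In Tyk2ΔIEC tumors 8 members passed with DESeq2, which adds H2-D1 and B2m. With thinned Tyk2fl/fl counts, or without a low-count filter, 4 passed there, and Tapbpl and Erap1 were lost. Same-numbered libraries showed no clear pairing: their correlations ran from -0.158 to 0.0100 in the germline and from -0.410 to 0.133 in the epithelial experiment. With so few libraries this cannot tell whether the replicate numbers pair the samples. With the number as a replicate block, 0 of the 6 members passed in Tyk2ΔIEC tumors and 0 were over 2-fold, and 7 passed in Tyk2Δ/Δ tumors. Log2 ratios in Tyk2ΔIEC minus Tyk2fl/fl were then 0.41 for Tap1 to Tap2 and 0.20 for Tapbpl to Tapbp. Both had an exact p = 0.125, the smallest that this sign-flip test over same-numbered pairs allows, so neither could pass. The difference for light to heavy chain was -0.15, of reversed sign. Under the block Calr was 0.05145 higher in Tyk2+/+ than in Tyk2fl/fl tumors. The cause was not tested, and the block uses fewer residual degrees of freedom. In the epithelial experiment Tyk2fl/fl libraries 5 to 7 share no number with a Tyk2ΔIEC library. The block there thus compares Tyk2ΔIEC libraries with Tyk2fl/fl libraries 1 to 4 only, not with all controls.

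Values near 0 changed sign. Tapbp in Tyk2ΔIEC tumors was -0.0194 without a filter, -0.00348 with a stricter one, -0.0872 with Tyk2fl/fl replicates 4 to 7, -0.11 with 5 to 7, -0.00775 with thinned counts, and -0.0456 to 0.0690 without single libraries. Between the controls Tapbp was -0.0117 with Tyk2fl/fl replicates 5 to 7. The difference of Calr between experiments was 0.0164 without a filter, 0.07575 and 0.08895 with those controls, 0.002905 with thinned counts, and -0.0472 to 0.0321 without single libraries. The light to heavy chain difference in Tyk2ΔIEC tumors was -0.0263 to 0.0926 without single libraries. With Tyk2fl/fl replicates 4 to 7, 4 members passed in Tyk2ΔIEC tumors and the Tapbpl to Tapbp difference was 0.35 (exact p = 0.0571).

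Counts over all genes moved more. In Tyk2Δ/Δ tumors 453 genes passed, against 1250 with DESeq2, 1020 without a filter, 246 with the block and 114 to 822 without single libraries. In Tyk2ΔIEC tumors 3515 passed, 1181 with the block and 1632 to 3798 without single libraries. The difference passed for 1374 genes, 868 without a filter, 2401 with Tyk2fl/fl replicates 5 to 7 (a choice made after seeing the data) and 584 to 1690 without single libraries. Between the controls 2219 passed, 1453 without a filter and 345 to 2806 without single libraries.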
